A study of Homo sapiens with 18 samples.

Results

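Polyadenylated RNA of KBM7 cells, a human chronic myelogenous leukaemia line, was compared between 3 libraries treated with dCeMM-4 and 3 treated with THZ531, which are 6 of the 18 libraries of the series. The members were chosen by the treatment named in the labels, where dCeMM-4 is coded Hit8, and all annotated genes of the count tables entered the comparison. Cells had dCeMM-4 at 10 times its EC50 or THZ531 at 600 nM for 5 h, and 3 libraries with DMSO, the solvent control, for the same 5 h are given beside them. The doses are not matched to each other: one is a multiple of a half-maximal concentration and the other a fixed concentration. All groups shared the cell line, the growth medium and added synthetic spike-in RNAs of the ERCC and SIRV sets. The labels do not say whether replicate libraries derive from different cultures, so p-values here measure only the spread between these libraries.

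Cyclin K is the regulatory subunit of CDK12 and CDK13, kinases that phosphorylate the C-terminal domain of RNA polymerase II and are needed for productive elongation and for full-length transcripts of many genes, among them DNA repair genes. dCeMM-4 is known as a molecular glue that brings the complex of CDK12 and cyclin K to the DDB1 adaptor of a CUL4 ubiquitin ligase, after which cyclin K is degraded. THZ531 is a known inhibitor that binds CDK12 and CDK13 covalently, so the comparison sets loss of the cyclin beside block of its kinases. The RNA tables hold no measurement of cyclin K protein or of kinase activity.

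Most genes differed between both treatments. On the TMM scale, which holds the bulk of genes near a log2 fold change of 0, 12020 of 15055 tested genes passed the threshold of an adjusted p of 0.05 (79.8%). With dCeMM-4, 6068 were higher than with THZ531 (40.3%) and 5952 were lower (39.5%). Differences of at least 2-fold numbered 3637 higher genes (24.2%) and 2799 lower genes (18.6%). Scaled by spike-in counts instead, 10721 genes passed (71.2%), of which 10353 were higher with dCeMM-4 (68.8%) and 368 lower (2.44%). The count of 368 was 234 without dCeMM-4 replicate 1. A gene called higher on the TMM scale was in every case also called higher on the spike-in scale, whereas of the 5952 lower genes 2020 were called higher and 3564 were not called there.

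The scales differed in their centre. The median log2 fold change of all tested genes was -0.05 on the TMM scale and 1.23 on the spike-in scale, a difference of 1.27, and the spike-in median corresponds to a 2.34-fold higher level with dCeMM-4. Spike-in RNA made up 0.290%, 0.195% and 0.217% of gene and spike-in counts in the dCeMM-4 libraries, against 0.416%, 0.591% and 0.584% in the THZ531 libraries and 0.179% ± 0.0200 in DMSO (SD, n = 3). The dCeMM-4 and THZ531 libraries did not overlap (exact two-sided permutation p = 0.1, the smallest that 3 against 3 can give). Fewer cells and less RNA per cell cannot be told apart in such bulk samples, and the basis on which spike-in was added, cell number or RNA mass, is not in the labels. Against DMSO on the spike-in scale, the median gene was at -0.56 with dCeMM-4 and at -1.94 with THZ531, values that share the DMSO libraries. Fold changes, counts of calls and positions relative to DMSO below are on the TMM scale unless the spike-in scale is named, and fold changes are log2 values of dCeMM-4 over THZ531. Counts for gene lists stand against 40.3% higher and 39.5% lower over all tested genes, or 46.5% and 36.2% over protein-coding genes. By spike-in counts they stand against 68.8% and 2.44% over all tested genes, or 9467 and 183 of 12332 protein-coding genes.

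**Figure D1:**
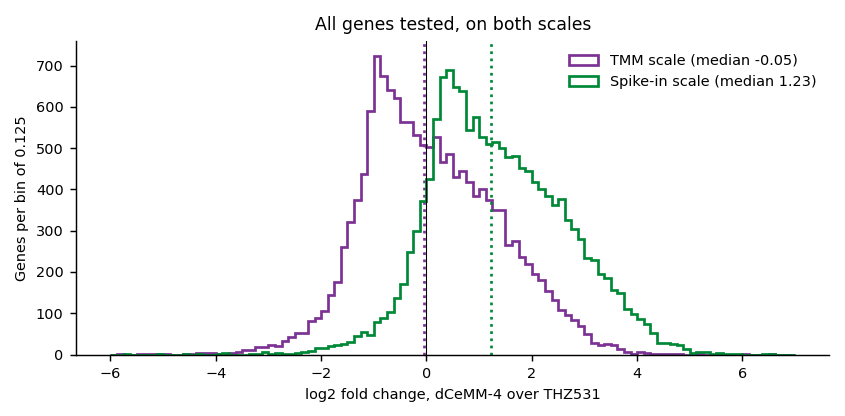
Histogram of the log2 fold change, dCeMM-4 over THZ531, of the 15055 tested genes, in genes per bin, on the TMM scale (purple) and the spike-in scale (green), with dotted lines at the medians. The medians are -0.05 and 1.23, and on the spike-in scale most of the distribution lies above 0.

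The libraries held 16589288 to 17943571 gene counts with dCeMM-4 and 12194329 to 14074155 with THZ531, and one DMSO library, replicate 3, held 4598576. THZ531 replicate 1 stood apart from the other THZ531 libraries: 12.9% of its gene counts were mitochondrial, against 8.21% and 8.17%, and it had 9.26 reads outside annotated genes per 100 gene reads, against 15.3 and 15.2. Without it, 11729 genes passed on the TMM scale and 11230 on the spike-in scale. Mitochondrial transcripts took 7.30%, 6.51% and 4.58% of gene counts with dCeMM-4, all below the THZ531 libraries, and 5.14% ± 0.662 in DMSO (SD, n = 3, exact p = 0.1 for dCeMM-4 against THZ531). Markers of the labelled cell type were present. The 13 myeloid and leukaemia markers summed to 1610 to 1692 CPM with dCeMM-4, 939 to 1016 with THZ531 and 2033 to 2156 in DMSO. CPM are gene counts scaled by TMM to a common total, and the myeloid enzyme gene MPO was near 0. Most of the difference in sums between the compounds was MYB, at 800, 106 and 803 CPM with dCeMM-4, with THZ531 and in DMSO. PTPRC went the other way between the compounds, at 225, 529 and 442 CPM. Of 12 tested markers of this list 10 were called higher with dCeMM-4 than with THZ531 and 2 lower. Erythroid markers summed to 1.83 to 2.17, 1.48 to 2.13 and 4.40 to 6.12 CPM in these 3 groups. Nearly all of that was EPOR (1.95, 1.73 and 5.16 CPM), and the globin genes HBB, HBA2 and HBG1 had 0 counts in each group. Of 9 T and NK cell markers, 4 were expressed highly enough to be tested, and the list summed to 77.6 to 82.5 CPM with dCeMM-4, 152 to 166 with THZ531 and 70.1 to 76.5 in DMSO, nearly all of it CD3D. The sums of B cell markers were 14.5 to 17.1, 19.8 to 22.1 and 29.9 to 35.1 CPM. Among them PAX5 was highest in DMSO (6.90, 5.59 and 22.6 CPM), whereas CD79A was lowest there (4.50, 8.37 and 2.69 CPM). Fibroblast and epithelial markers, mostly vimentin, summed to 620 to 641, 1102 to 1158 and 555 to 590 CPM. The part of these in the results was not tested.

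**Figure D2:**
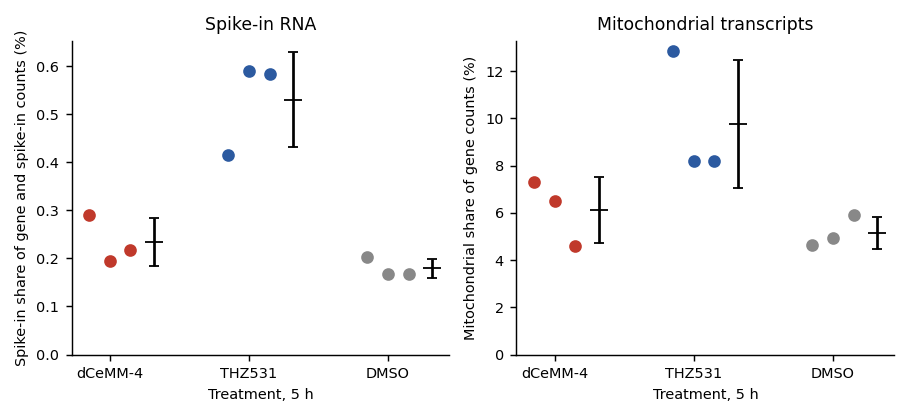
Spike-in share of gene and spike-in counts (left) and mitochondrial share of gene counts (right), in percent, by treatment, with 1 point per library and bars for the mean ± SD (n = 3). Every dCeMM-4 library lies below every THZ531 library in both panels.

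The 3 largest rises of dCeMM-4 over THZ531 were in genes with few reads left in the THZ531 libraries. ZNF57 (ENSG00000171970, chromosome 19, 2900898 to 2918476, plus strand, GRCh38), which encodes a zinc finger protein, had 8.83, 9.85 and 7.38 CPM with dCeMM-4, against 0.410, 0.0877 and 0.158 CPM with THZ531, and 8.66 ± 0.650 CPM in DMSO (SD, n = 3). Every dCeMM-4 library lay far above every THZ531 library and near the DMSO level, and over all tested genes the libraries of both compounds did not overlap in 80.9%. The log2 fold change was 5.25 (SE 0.30, adjusted p = 8.83e-19), and 6.04 without THZ531 replicate 1. USP2 (ENSG00000036672, chromosome 11, 119355215 to 119381726, minus strand), a deubiquitinase gene, had 19.9, 20.6 and 19.1 CPM with dCeMM-4, against 0.985, 0.526 and 1.02 CPM with THZ531, and 20.5 ± 1.95 CPM in DMSO (log2 fold change 4.52, SE 0.19, adjusted p = 1.67e-22). EFNA4, which encodes the membrane-anchored ligand ephrin-A4, had 5.78, 5.33 and 5.18 CPM with dCeMM-4, against 0.164, 0.175 and 0.394 CPM with THZ531 (4.40, SE 0.32), and 7.97 ± 1.14 CPM in DMSO. In all of these the groups were separated by more than a factor of 10, and the low THZ531 levels rest on few reads.

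Among the next largest rises, CDX2, XKR8, FAM222A, PLEKHG3, RNF122 and ZNF180 were also called higher with dCeMM-4 than in DMSO on the TMM scale, and of these XKR8, FAM222A and RNF122 were still called by spike-in counts. DLX6, ZNF799 and RTN4RL1 were at 0.43, 0.19 and 0.013 against DMSO on the TMM scale and were not called there (adjusted p = 0.0670, 0.296 and 0.922 by edgeR). The homeobox gene CDX2 had 28.3, 31.2 and 31.0 CPM with dCeMM-4, against 1.72, 1.32 and 1.89 CPM with THZ531, and 17.8 ± 1.02 CPM in DMSO (log2 fold change 4.18, SE 0.17). The homeobox gene DLX6, which its antisense gene DLX6-AS1 overlaps, was at 4.30 (SE 0.37). XKR8, a gene for a phospholipid scramblase, had 30.6, 31.6 and 34.3 CPM with dCeMM-4, against 1.97, 1.93 and 1.89 CPM with THZ531, and 14.4 ± 1.93 CPM in DMSO (4.05, SE 0.15). FAM222A stood highest above DMSO with dCeMM-4 among the 12 largest rises: it had 15.3, 18.6 and 14.4 CPM with dCeMM-4, against 1.07, 0.789 and 1.10 CPM with THZ531, and 2.78 ± 0.447 CPM in DMSO (4.01, SE 0.20). The zinc finger genes ZNF180 and ZNF799 were both at 4.01 (SE 0.18 and 0.28), PLEKHG3, a gene for a guanine nucleotide exchange factor, at 4.35, RTN4RL1, a gene for a Nogo receptor relative, at 3.91, and the ring finger gene RNF122 at 3.99, which became 4.61 without THZ531 replicate 1. On the spike-in scale the largest rises were those of ZNF57, USP2, EFNA4, PLEKHG3 and DLX6, at 6.498, 5.81, 5.66, 5.63 and 5.54.

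The genes lower with dCeMM-4 on both scales numbered 368, and the largest falls among the protein-coding genes taken by the naming rule were those of IER3 and FOS. IER3 (ENSG00000137331, chromosome 6, 30743199 to 30744554, minus strand), an immediate early gene with a role in survival under stress, had 0.124, 0.232 and 1.16 CPM with dCeMM-4, against 18.4, 15.5 and 17.1 CPM with THZ531, and 0.160 ± 0.187 CPM in DMSO (SD, n = 3). All THZ531 libraries were far above the others, and dCeMM-4 replicate 3 was the highest of its group. The log2 fold change was -5.06 (SE 0.32, adjusted p = 3.33e-13), -6.48 without dCeMM-4 replicate 3 and -3.79 on the spike-in scale. FOS (ENSG00000170345, chromosome 14, 75278774 to 75282230, plus strand), which encodes an AP-1 subunit, had 6.96, 7.30 and 6.77 CPM with dCeMM-4, against 88.2, 81.7 and 85.7 CPM with THZ531, and 13.04 ± 1.86 CPM in DMSO. The dCeMM-4 libraries lay below DMSO and the THZ531 libraries above it, and the log2 fold change was -3.60 (SE 0.10, adjusted p = 8.73e-28), or -2.33 on the spike-in scale.

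CDKN1A, which encodes the CDK inhibitor p21 and is a p53 target (chromosome 6, 36676460 to 36687339, plus strand), had 81.0, 81.1 and 84.5 CPM with dCeMM-4, against 482, 511 and 520 CPM with THZ531, and 19.4 ± 0.919 CPM in DMSO. It stood above DMSO with either compound and was lower with dCeMM-4 than with THZ531, at -2.62 (SE 0.07, adjusted p = 9.58e-29), or -1.33 by spike-in counts. SLC7A11, the cystine importer gene, had 25.7, 22.8 and 22.8 CPM with dCeMM-4, against 174, 178 and 179 CPM with THZ531, and 12.6 ± 1.41 CPM in DMSO (-2.90, SE 0.09). ARC, an activity-regulated immediate early gene, had 7.09, 8.46 and 8.72 CPM with dCeMM-4, against 54.3, 49.995 and 56.7 CPM with THZ531, and 0.701 ± 0.329 CPM in DMSO (-2.73, SE 0.11). For these genes the groups did not overlap, and each compound had all its libraries above DMSO, although by spike-in counts the difference of SLC7A11 between dCeMM-4 and DMSO was not called (0.34, adjusted p = 0.197).

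A second kind of lower gene was one that, on the TMM scale only, dCeMM-4 reduced below DMSO and THZ531 did not. ANTXR2, which encodes an anthrax toxin receptor that binds basement membrane proteins and spans 224306 bases, had 26.4, 25.3 and 29.5 CPM with dCeMM-4, against 184, 182 and 178 CPM with THZ531, and 156 ± 9.09 CPM in DMSO (-2.75, SE 0.07, and -1.47 on the spike-in scale). DAPP1, a gene for an adaptor protein of B cell receptor and phosphoinositide signalling, had 1.24, 1.10 and 0.854 CPM with dCeMM-4, against 11.2, 12.02 and 11.7 CPM with THZ531, and 7.51 ± 0.138 CPM in DMSO (-3.44, SE 0.17). The interleukin-18 receptor gene IL18R1 had 1.68, 1.74 and 1.71 CPM with dCeMM-4, against 10.5, 15.9 and 14.0 CPM with THZ531, and 15.1 ± 2.49 CPM in DMSO (-2.97, SE 0.18). The cation channel gene TRPC1, the transcription factor gene RFX3 and the relaxin receptor gene RXFP1 were at -2.98, -2.97 and -2.85, with DMSO means of 14.9, 17.3 and 37.5 CPM that lay between those of both compounds. The methyltransferase gene CSKMT, whose annotation overlaps LBHD1 on the other strand and SNORA57 on the same strand, was at -3.02 (SE 0.13). It stood above DMSO with either compound on the TMM scale. By spike-in counts its difference between dCeMM-4 and DMSO was not called (0.046, adjusted p = 0.910 by edgeR). On the spike-in scale IER3, FOS, DAPP1 and CSKMT, at -3.79, -2.33, -2.18 and -1.74, were among the 5 largest falls.

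**Figure D3:**
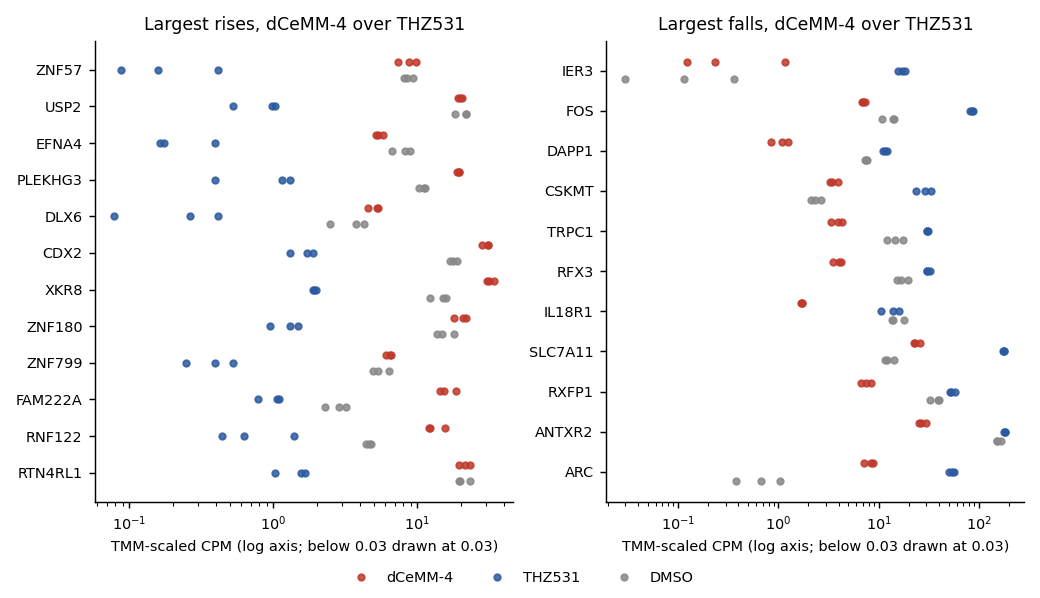
TMM-scaled CPM, on a log axis, of the 12 largest rises (left) and of 11 of the 12 largest falls (right) of dCeMM-4 over THZ531, with 1 point per library for dCeMM-4 (red), THZ531 (blue) and DMSO (grey). In the left panel most dCeMM-4 points sit near or above DMSO and THZ531 points sit apart at lower values, whereas in the right panel THZ531 points sit highest for nearly every gene.

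The 3637 genes at least 2-fold higher had a median log2 fold change against DMSO of 0.29 with dCeMM-4 and of -1.49 with THZ531 on the TMM scale, and of -0.27 and -3.33 on the spike-in scale. The 2799 genes at least 2-fold lower were at -0.43 with dCeMM-4 and 1.03 with THZ531, and at -0.99 and -0.80 on the spike-in scale. These sets were chosen by the contrast itself and both columns share the DMSO libraries, so the values describe them only. Among the 368 genes lower on both scales 183 were protein-coding, and their median level was 0.620 CPM with dCeMM-4, 3.71 CPM with THZ531 and 1.28 CPM in DMSO.

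Promoters are shown for the largest rise and the largest fall with exactly 1 entry in the promoter table, as the 250 bases before the RefSeq transcription start, 5′ to 3′ on the gene's strand (GRCh38.p14). Capitals mark a match on either strand to TATAAA, the TATA box core, or TGACGT, the core of the cAMP response element. The USP2 entry is chr11:119364209-119364458 (minus strand), inside the annotated span of the gene, and the FOS entry is chr14:75278578-75278827 (plus strand).
USP2: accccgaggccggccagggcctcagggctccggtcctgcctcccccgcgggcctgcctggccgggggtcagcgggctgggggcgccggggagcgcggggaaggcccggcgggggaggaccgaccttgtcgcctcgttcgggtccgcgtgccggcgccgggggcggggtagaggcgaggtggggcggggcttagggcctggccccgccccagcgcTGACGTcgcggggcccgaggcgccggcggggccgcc
FOS: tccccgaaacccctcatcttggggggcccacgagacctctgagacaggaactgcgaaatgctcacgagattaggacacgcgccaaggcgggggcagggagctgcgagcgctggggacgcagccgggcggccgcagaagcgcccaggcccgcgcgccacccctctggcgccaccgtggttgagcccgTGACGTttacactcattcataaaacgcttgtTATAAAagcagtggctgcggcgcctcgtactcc

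The USP2 window is 83.2% G and C and holds 1 TGACGT and no TATAAA, and the FOS window is 64.8% G and C and holds 1 of each. Over windows of 300 bases that reach 50 bases past the start, TATAAA was present in 5.31% of 4012 promoters of genes at least 2-fold higher, in 8.90% of 2033 promoters of genes at least 2-fold lower and in 12.1% of 248 promoters of genes lower on both scales. The share was 6.23% over all tested genes and 11.5% over all 35116 promoters of the table. TGACGT was present in 11.1%, 8.76% and 10.1% of these sets, in 10.3% of promoters of tested genes and in 7.98% of all. The table matched 2795 of the 3637 higher genes and 1402 of 2797 distinct symbols among the lower genes. A match of letters is a description and not a binding site.

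The mRNAs of the targeted complex were themselves higher with dCeMM-4. CCNK, encoding cyclin K (chromosome 14, 99481169 to 99535044, plus strand), had 216, 208 and 204 CPM with dCeMM-4, against 95.6, 95.7 and 98.9 CPM with THZ531, and 122 ± 3.51 CPM in DMSO (SD, n = 3). All dCeMM-4 libraries lay above DMSO and all THZ531 libraries below it on the TMM scale, and the log2 fold change was 1.12 (SE 0.06, adjusted p = 5.55e-19). Against DMSO, dCeMM-4 was at 0.78 on the TMM scale and at 0.20 by spike-in counts, where it was not called (adjusted p = 0.427). CDK12 had 182, 185 and 192 CPM with dCeMM-4, against 67.8, 66.8 and 72.0 CPM with THZ531, and 179 ± 4.25 CPM in DMSO (1.44, SE 0.07). CDK13 had 120, 122 and 123.3 CPM with dCeMM-4, against 64.3, 64.0 and 59.4 CPM with THZ531, and 110 ± 1.21 CPM in DMSO (0.96, SE 0.07). The ligase adaptor DDB1 had 377, 391 and 429 CPM with dCeMM-4, against 400.5, 361 and 371 CPM with THZ531. Its groups overlapped, and its difference of 0.08 had a 95% interval of -0.05 to 0.21 (adjusted p = 0.238). The ligase subunit genes RBX1 and CUL4A were at -0.75 and -0.32, and RBX1 was at 0.53 on the spike-in scale. RBM39, a splicing factor gene, was at 0.96 (SE 0.07).

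Genes of the elongation machinery were mostly higher with dCeMM-4. Of 25 tested genes of P-TEFb (the kinase CDK9 with cyclin T), its 7SK inhibitor complex and other elongation factors, 18 were higher and 3 lower, with a median of 0.75 against -0.05 over all genes. MEPCE, the capping enzyme of 7SK RNA, had 52.6, 51.3 and 48.5 CPM with dCeMM-4, against 5.42, 5.96 and 4.89 CPM with THZ531, and 64.8 ± 6.10 CPM in DMSO (3.23, SE 0.12, adjusted p = 1.20e-24). The dCeMM-4 libraries lay far above the THZ531 libraries and under the DMSO mean. The NELF subunit NELFA was at 2.06, the ELL partner EAF1 at 1.49 and MLLT1, a reader of acylated histones in the super elongation complex, at 1.53. HEXIM1, the protein inhibitor of P-TEFb, had 105, 115 and 109 CPM with dCeMM-4, against 71.0, 83.5 and 86.5 CPM with THZ531, and 28.8 ± 2.10 CPM in DMSO (0.45, SE 0.10).

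The PAF1 complex, which travels with elongating polymerase, had 5 of 6 genes higher and 1 lower, with a median of 1.16. LEO1 had 113, 127 and 115 CPM with dCeMM-4, against 20.3, 21.8 and 22.8 CPM with THZ531, and 86.2 ± 3.92 CPM in DMSO (2.45, SE 0.08). PAF1, CTR9 and RTF1, the other named subunits, were at 2.04, 1.22 and 1.09. Of 28 genes of RNA polymerase II and general transcription factors 18 were higher and 7 lower, with a median of 0.48. GTF2E1, a subunit of TFIIE, had 16.0, 15.7 and 15.5 CPM with dCeMM-4, against 2.46, 2.28 and 2.05 CPM with THZ531, and 52.1 ± 3.58 CPM in DMSO (2.79, SE 0.14), so both compounds left it below DMSO. The polymerase subunit POLR2D and the initiation factor GTF2B were at 1.78 and 1.72. GTF2H3, a subunit of TFIIH, went the other way: it had 25.4, 20.4 and 19.7 CPM with dCeMM-4, against 94.7, 87.9 and 94.3 CPM with THZ531, and 56.0 ± 5.40 CPM in DMSO (-2.08, SE 0.10, and -0.83 on the spike-in scale).

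Of 24 genes of cleavage, polyadenylation and Integrator, 9 were higher and 10 lower, shares near those of all genes, with a median of -0.14. By spike-in counts 19 of them were called higher. CSTF1, a subunit of the cleavage stimulation factor, had 49.9, 49.0 and 51.9 CPM with dCeMM-4, against 4.43, 4.91 and 3.86 CPM with THZ531, and 73.0 ± 2.16 CPM in DMSO (3.52, SE 0.11, adjusted p = 4.04e-26). The cleavage factor CLP1 was at 2.66 and FIP1L1, a subunit of the polyadenylation specificity factor, at 1.39. CPSF2, another subunit of that factor, was at -1.30 and at -0.02 on the spike-in scale, where it was not called (adjusted p = 0.936). Of 26 SR and hnRNP splicing factor genes 19 were higher and 5 lower, with a median of 0.34, SRSF4 at 1.84, SRSF5 at 1.35 and HNRNPF at 1.05. HNRNPC was at -0.90 and not called on the spike-in scale (0.36, adjusted p = 0.0947).

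DNA repair genes are the class for which CDK12 is best known. Of 30 homologous recombination and damage response genes 16 were higher and 13 lower (median 0.45, range -3.34 to 2.80). Of 15 Fanconi anaemia genes 10 were higher and 3 lower (median 0.80). Both TMM shares of the first list, higher and lower, lay somewhat above those of protein-coding genes. By spike-in counts 23 of the first list were higher and 2 lower, and 13 of the second were higher. On that scale the first list's share of higher genes was near that of protein-coding genes (9467 of 12332). PALB2, which links BRCA1 and BRCA2, had 25.3, 23.9 and 28.8 CPM with dCeMM-4, against 2.87, 3.33 and 4.89 CPM with THZ531, and 31.0 ± 2.01 CPM in DMSO (2.80, SE 0.14). The ubiquitin ligase RNF8, the ATR activator TOPBP1 and the checkpoint mediator CLSPN were at 2.54, 1.87 and 1.73, and FANCE, UBE2T and FANCB at 2.20, 1.05 and 1.19. BRCA1 had 8.08, 8.11 and 7.07 CPM with dCeMM-4, against 22.3, 16.7 and 17.3 CPM with THZ531, and 52.7 ± 4.04 CPM in DMSO. Both compounds left it well under DMSO, and its difference was -1.28 on the TMM scale (SE 0.13, adjusted p = 1.13e-11) but -0.02 on the spike-in scale, with no call (adjusted p = 0.933). The checkpoint kinase gene ATR had 51.9, 51.6 and 62.6 CPM with dCeMM-4, against 33.1, 36.8 and 34.4 CPM with THZ531, and 104 ± 7.57 CPM in DMSO (0.67, SE 0.09). FANCD2 was lower at -0.46 on the TMM scale and higher at 0.80 on the spike-in scale, and FANCI was at -0.94 and, not called, at 0.32.

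Of 26 p53 target genes 7 were higher and 15 lower with dCeMM-4 (median -0.53), and by spike-in counts 15 stood higher and 3 lower. The pro-apoptotic gene PMAIP1 had 42.5, 39.7 and 36.7 CPM with dCeMM-4, against 180, 172 and 177 CPM with THZ531, and 28.5 ± 5.73 CPM in DMSO (-2.15, SE 0.10, and -0.89 on the spike-in scale). The death receptor gene TNFRSF10B was at -1.70 and lost its call on the spike-in scale (-0.42, adjusted p = 0.0611). SESN2, a stress-induced regulator of mTORC1, and PPM1D, the phosphatase that dampens p53 signalling, were higher at 2.28 and 2.10. SESN2 had 52.96, 55.3 and 56.0 CPM with dCeMM-4, against 10.8, 12.1 and 11.0 CPM with THZ531, and 10.2 ± 0.985 CPM in DMSO. On the TMM scale its THZ531 libraries sat close to DMSO while dCeMM-4 stood above both. By spike-in counts THZ531 was called below DMSO (-1.68) and dCeMM-4 above it (1.89).

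Immediate early genes and feedback genes of the ERK pathway went opposite ways on the TMM scale. Of 32 AP-1, EGR and other immediate early genes, which respond to ERK and stress kinases, 9 were higher and 18 lower with dCeMM-4 (median -0.57), against 17 and 8 on the spike-in scale. GADD45B had 21.8, 23.4 and 23.5 CPM with dCeMM-4, against 78.0, 79.99 and 80.7 CPM with THZ531, and 8.23 ± 0.749 CPM in DMSO (-1.80, SE 0.08, and -0.51 on the spike-in scale, adjusted p = 0.0302). JUNB was at -1.65, with no call on the spike-in scale (-0.37, adjusted p = 0.0999). The negative feedback genes of the ERK pathway were mostly higher: 9 of 11 were higher and 2 lower, with a median of 1.5996. DUSP6, a phosphatase that inactivates ERK, had 510, 490 and 488 CPM with dCeMM-4, against 130, 108 and 113 CPM with THZ531, and 146 ± 1.58 CPM in DMSO (2.08, SE 0.07, adjusted p = 2.58e-25). The dCeMM-4 libraries stood well above both other groups. DUSP5 had 28.4, 33.7 and 30.7 CPM with dCeMM-4, against 4.35, 3.25 and 3.31 CPM with THZ531, and 8.69 ± 0.631 CPM in DMSO (3.09, SE 0.13), while DUSP7 and the Sprouty-related gene SPRED2 were at 2.43 and 1.5996.

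MYC and most genes of its network were higher. MYC had 722, 799 and 705 CPM with dCeMM-4, against 292, 269 and 283 CPM with THZ531, and 802 ± 31.0 CPM in DMSO (1.40, SE 0.06, adjusted p = 2.34e-22). Of 24 genes of the MYC network and MYC targets 17 were higher and 4 lower (median 0.72). The ribosome biogenesis gene NOP16 had 106, 115 and 102 CPM with dCeMM-4, against 12.3, 13.2 and 13.3 CPM with THZ531, and 101 ± 5.94 CPM in DMSO (3.05, SE 0.09). GNL3 and WDR43, which act in the nucleolus, were at 2.68 and 2.55, and the MAX partner MNT at 2.61. The dCeMM-4 libraries of NOP16 stood near DMSO, apart from those of THZ531.

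In the cell cycle lists, of 29 tested mitotic genes 23 were higher and 4 lower (median 1.18), and of 30 genes of DNA replication and E2F targets 19 were higher and 8 lower (median 0.31). The mitotic kinesin KIF23 had 187, 197 and 210 CPM with dCeMM-4, against 40.3, 34.1 and 32.4 CPM with THZ531, and 119 ± 4.18 CPM in DMSO (2.48, SE 0.08). The chromosomal passenger subunit INCENP, the kinesin KIF11 and the kinetochore protein CENPF were at 2.39, 2.31 and 1.91. CCNE1, which encodes cyclin E1, was at 2.53, the replication factor MCM10 at 2.19, POLD3 at 1.76 and RFC3 at 1.36. Of 11 CDK inhibitors and D cyclin genes 4 were higher and 6 lower, with CDKN2C, encoding p18, at 2.21, CCND3 at 1.25 and CDK6 at -1.13, which was at 0.14 and not called on the spike-in scale. By spike-in counts the list had 6 genes higher and 1 lower.

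In the BCL2 family, 8 of 15 genes were higher and 5 lower (median 0.37), shares near those of protein-coding genes. By spike-in counts 12 were higher and 1 lower. BCL2L1, encoding the survival protein BCL-XL, had 165, 169 and 158 CPM with dCeMM-4, against 28.2, 25.8 and 24.6 CPM with THZ531, and 105 ± 9.43 CPM in DMSO (2.64, SE 0.09, adjusted p = 5.55e-26). The survival gene MCL1 had 385, 387 and 353 CPM with dCeMM-4, against 122.7, 116 and 122 CPM with THZ531, and 202 ± 7.19 CPM in DMSO (1.64, SE 0.09). The dCeMM-4 libraries of both genes lay above DMSO and the THZ531 libraries below it on the TMM scale, whereas by spike-in counts dCeMM-4 was not called against DMSO for either (0.084 and 0.33, adjusted p = 0.763 and 0.173). Genes that promote apoptosis were found on either side, with BAK1 and BCL2L11 at 2.50 and 1.98 and PMAIP1, given above, at -2.15.

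Stress and metabolic lists were counted as well. Of 18 heat shock and chaperone genes 15 were higher and 1 lower (median 1.18). DNAJB1, an HSP40 cochaperone, had 162, 165 and 157 CPM with dCeMM-4, against 33.7, 33.8 and 35.9 CPM with THZ531, and 220 ± 15.6 CPM in DMSO (2.23, SE 0.07). The transcription factor HSF2 was at 2.86, the HSP90 cochaperone CHORDC1 at 2.22 and DNAJA1 at 1.42. Of 24 ATF4 targets and genes of the unfolded protein response 12 were higher and 9 lower (median 0.19), shares near those of protein-coding genes, and by spike-in counts 19 were higher and 2 lower. XBP1, a transcription factor of that response, had 618, 568 and 589.5 CPM with dCeMM-4, against 60.4, 69.9 and 69.6 CPM with THZ531, and 976 ± 48.1 CPM in DMSO (3.15, SE 0.07, adjusted p = 2.19e-30), whereas the serine synthesis gene PSAT1 was at -1.82, or -0.56 with spike-in scaling.

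Of 15 NRF2 targets 6 were higher and 7 lower, shares near those of all genes, and by spike-in counts 14 were higher and 1 lower. SRXN1 and the glutathione synthesis gene GCLC were at 3.22 and 2.39, and the ferritin gene FTL was at -0.79. Of 18 genes of cholesterol metabolism 13 were higher and 4 lower (median 0.57). SQLE, which encodes the cholesterol synthesis enzyme squalene epoxidase, had 244, 236 and 215 CPM with dCeMM-4, against 51.6, 52.2 and 50.6 CPM with THZ531, and 159 ± 6.80 CPM in DMSO (2.17, SE 0.07). Its dCeMM-4 libraries lay above DMSO and its THZ531 libraries below it on the TMM scale, though by spike-in counts dCeMM-4 was at -0.027 against DMSO and not called (adjusted p = 0.925), and INSIG1, a sterol-sensing regulator of that synthesis, was at 1.81. Of 16 tested NF-kB targets and cytokines 10 were higher and 5 lower, with NFKBIE, an inhibitor of NF-kB, and the cytokine gene OSM at 2.87 and 2.84, NFKBIZ at 1.27 and the chemokine gene CXCL10 at -1.05.

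Abundant housekeeping transcripts were mostly lower on the TMM scale, almost uniformly so in the ribosomal protein and mitochondrially encoded lists. By spike-in counts these lists held no gene called lower. There 26 ribosomal protein and 12 mitochondrially encoded mRNAs were not called. Of 42 cytosolic ribosomal protein mRNAs 41 were lower and 0 higher by edgeR (median -0.89), while by spike-in counts 16 stood higher and 0 lower (median 0.38). RPS20 had 2534, 2408 and 2301 CPM with dCeMM-4, against 4712, 4588 and 4527 CPM with THZ531, and 1638 ± 124.8 CPM in DMSO (-0.93, SE 0.06, and 0.34 on the spike-in scale, adjusted p = 0.0967). All 13 mitochondrially encoded mRNAs were lower on the TMM scale (median -0.96), and with spike-in scaling 1 was called higher and 0 were called lower. MT-CO1 had 7625, 6358 and 4681 CPM with dCeMM-4, against 15919, 10793 and 10715 CPM with THZ531 (-1.004, SE 0.23), with the highest value in THZ531 replicate 1. Of 34 nuclear-encoded oxidative phosphorylation genes 24 were lower and 3 higher (median -0.46), whereas with spike-in scaling 29 were called higher and 0 lower. UQCRFS1, the Rieske subunit of complex III, stood out from its list at 1.76.

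Replication-dependent histone genes were lower in 16 of 22 cases and higher in 1 (median -0.71), and by spike-in counts 11 stood higher and 4 lower. HIST1H3G had 5.10, 4.52 and 4.88 CPM with dCeMM-4, against 22.1, 21.8 and 22.1 CPM with THZ531, and 2.73 ± 0.378 CPM in DMSO (-2.19, SE 0.13, and -0.92 on the spike-in scale). HIST4H4 and HIST1H4C were at -1.90 and -1.85, and at -0.62 and -0.57 on the spike-in scale. The libraries were poly-A enriched and reads with several placements were not counted, so these values speak for polyadenylated and uniquely placed histone reads.

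**Figure D4:**
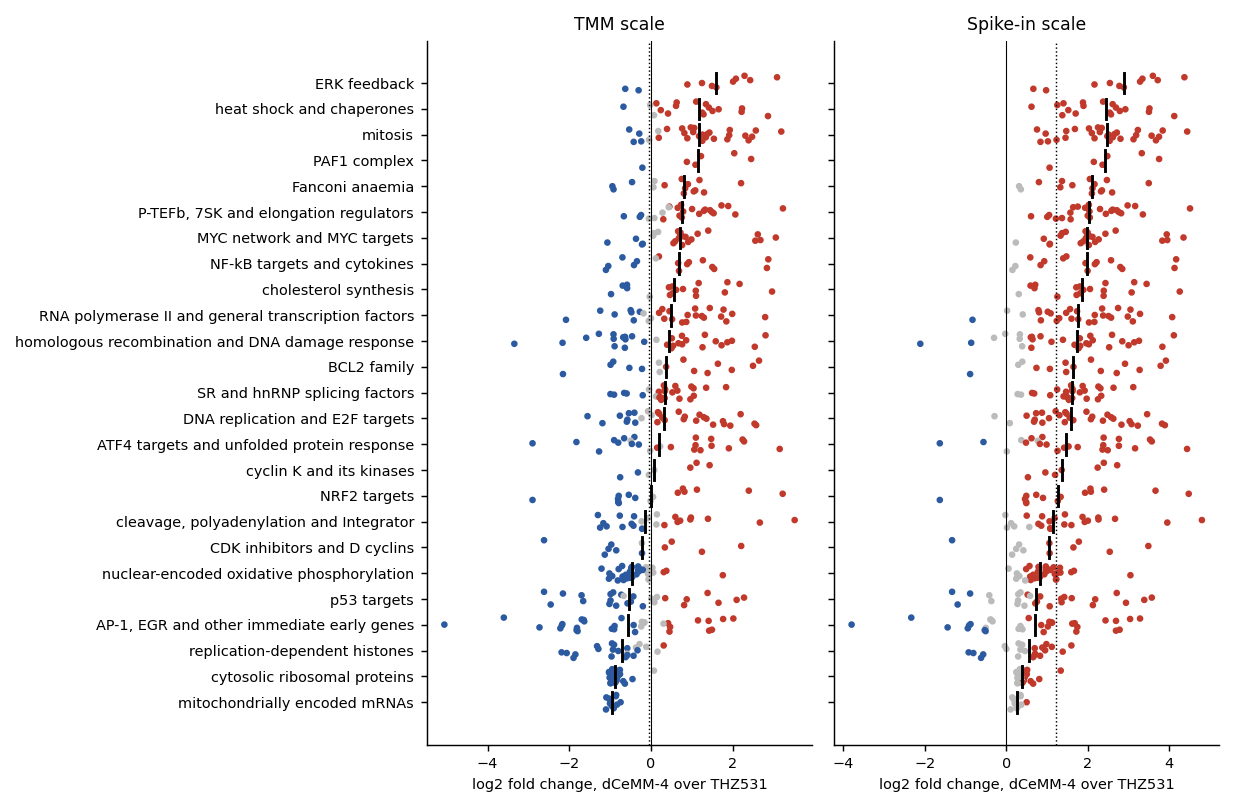
Log2 fold change, dCeMM-4 over THZ531, of the tested members of 25 gene lists on the TMM scale (left) and the spike-in scale (right), with 1 point per gene, red for called higher, blue for called lower and grey for not called, a black bar at each list's median and a dotted line at the median of all genes. ERK feedback genes have the highest median (1.5996) and mitochondrially encoded mRNAs the lowest (-0.96) on the TMM scale, and nearly all points lie above 0 on the spike-in scale.

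The difference varied with gene structure. For each library, the change of a gene was taken as its log2 CPM, with 0.5 CPM added, minus its mean over the 6 libraries. Protein-coding genes spanning at least 100 kb minus those under 20 kb gave medians of -0.02, -0.05 and -0.01 in the dCeMM-4 libraries, against 0.04, 0.04 and 0.01 in the THZ531 libraries. The difference of -0.06 (exact permutation p = 0.1) changed sign with other limits of length, to 0.0795 for 50 kb and 10 kb, and to 0.0444 among genes with a mean of at least 10 CPM. The longest genes stood apart in the division by span. Of 149 genes of 500 kb or more 30 were higher and 87 lower with dCeMM-4 on the TMM scale (median -0.57), whereas by spike-in counts 82 were higher and 3 lower (median 0.70). Their median against genes under 20 kb was -0.30, -0.31 and -0.24 with dCeMM-4, against 0.31, 0.33 and 0.32 with THZ531, a difference of -0.60 that was examined after the data were seen.

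The number of exons showed a wider contrast. Of 378 protein-coding genes whose longest transcript has 2 exons 263 were higher and 53 lower with dCeMM-4 (median 1.18), and 592 genes with 3 exons had a median of 0.80. Genes with 6 to 8 exons had a median of 0.10 and 233 genes with 41 exons or more -0.40, or 0.87 by spike-in counts. Against DMSO the 2-exon genes were at 0.27 with dCeMM-4 and at -0.92 with THZ531. Genes of 2 or 3 exons minus those of 4 or more were at 0.34, 0.35 and 0.33 with dCeMM-4, against -0.38, -0.34 and -0.35 with THZ531, a difference of 0.70 that was also examined after the data were seen (exact permutation p = 0.1). Single-exon genes minus multi-exon genes gave 0.05, 0.06 and 0.10 with dCeMM-4, against -0.11, -0.07 and -0.09 with THZ531 (difference 0.16, and 0.49 at a mean of at least 10 CPM, exact p = 0.1).

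**Figure D5:**
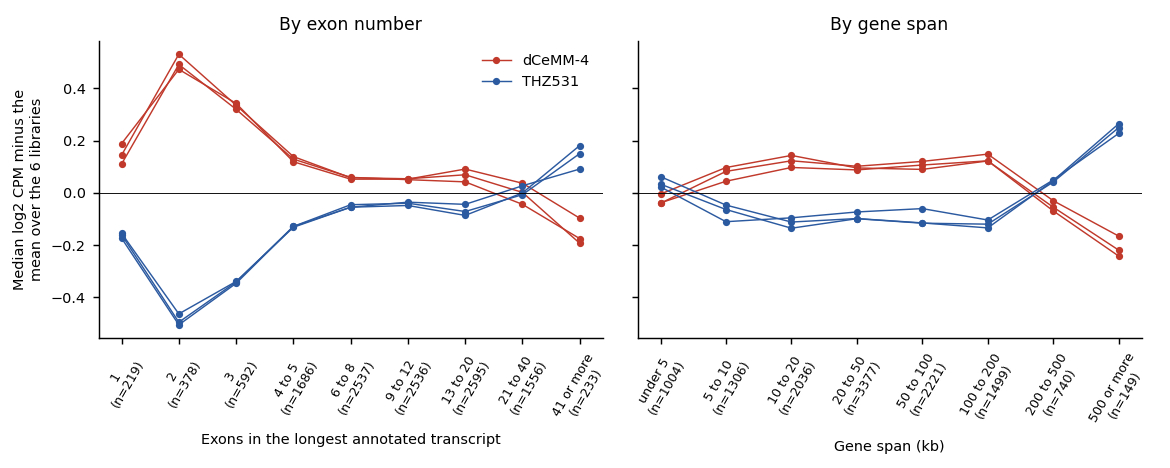
Median log2 CPM minus the mean over the 6 libraries, for protein-coding genes by number of exons (left) and by gene span in kb (right), with 1 line per library, red for dCeMM-4 and blue for THZ531, and the number of genes under each bin. The lines are farthest apart at 2 exons, where dCeMM-4 is higher, and THZ531 is higher for genes with the most exons, for spans of 200 kb or more and for spans under 5 kb.

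Zinc finger genes were mostly higher with dCeMM-4: 116 of 175 on chromosome 19 were higher and 25 lower (median 1.17), and 152 of 216 elsewhere were higher and 27 lower (median 1.06). Against DMSO on the TMM scale the chromosome 19 genes were at -0.64 with dCeMM-4 and at -1.75 with THZ531. Non-coding classes differed from protein-coding genes, whose median was 0.15. Of 569 antisense genes 37 were higher and 363 lower (median -1.12, and 0.15 on the spike-in scale). Of 428 lincRNA genes 52 were higher and 256 lower (median -1.09, and 0.19 on the spike-in scale), and processed pseudogenes had a median of -0.87. Sense intronic genes, annotated inside introns of other genes on the same strand, were an exception. Of 127 such genes 54 were higher and 31 lower (median 0.40, and 1.64 on the spike-in scale). Against DMSO their median was at 1.47 with dCeMM-4 and at 1.15 with THZ531, values of the TMM scale only. The strand setting of the counting is not stated, so reads of antisense and overlapping genes cannot be told apart, which touches 64 of the 126 genes that the naming rule takes.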

How the data were processed

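Per the labels' protocols, RNA was extracted with a column kit, SIRV-Set 3 spike-in (ERCC and SIRV) was added and libraries were made with the CORALL kit after poly-A enrichment. Each deposited table holds unnormalized read counts for the genes of 1 library, with 92 ERCC sequences, 7 SIRV genes and 5 HTSeq summary rows, which stayed out of gene totals. Tools named in the submitters' processing notes are STAR 2.5.2b, HTSeq 0.11.2, Trimmomatic 0.32 and Picard, with the build GRCh38.p7. The strand setting and any use of molecular identifiers are not given in the sources used here. Of 58051 gene identifiers 57447 matched GENCODE release 29.

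Counts were analysed with edgeR 4.0.16 in R 4.3.3: filterByExpr by group (15055 genes), TMM scaling, and a robust quasi-likelihood fit to all 18 libraries in 6 groups (12 residual degrees of freedom), with Benjamini-Hochberg adjustment over all tested genes and a threshold of 0.05. The spike-in scale replaces TMM by summed ERCC and SIRV counts. The SE of a log2 fold change is its size divided by the root of F, and CPM are TMM-scaled. Values of a library were compared by exact two-sided permutation tests. Named are the 12 largest rises and falls among called protein-coding genes whose libraries did not overlap, with at least 5 CPM in the higher group, the 5 largest each way on the spike-in scale, from each of 25 lists up to 4 genes of lowest adjusted p, and 12 genes of the cyclin K complex and related pathways. MPO, MYB, PTPRC, HBB, HBA2, HBG1, EPOR, CD3D, PAX5, CD79A and CUL4A were named outside this rule. Of the genes it takes, 3 are not reported here. The members and lists were chosen with earlier results of these data known. On simulated counts (14262 genes) the fit recovered 90.4% of 2-fold changes and 97.8% of those with a log2 change of 2, with 9 false calls. Only 94 and 92 genes were given these changes, in both directions, with the same dispersion for every gene. The simulation therefore does not show how the fit performs where most genes differ, as here. Alternatives were DESeq2 1.42.0, its size factors, no filter, the 6 libraries alone, a replicate block, ERCC or SIRV alone and each library left out. Intervals cover the spread between libraries only.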

Additional observations from a re-analysis of the deposited data

Results flagged for a closer look

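Reads that entered no gene count were more frequent with both compounds than in DMSO, in unassigned-read rows of the count tables that no comparison between treatments above used. Reads in no annotated feature numbered 13.6 per 100 gene reads with dCeMM-4 and 13.2 with THZ531, where 9.26, 15.3 and 15.2 were found in the THZ531 libraries, against 7.24 to 8.20 in DMSO. Reads aligned to several places numbered 48.5 per 100 gene reads with dCeMM-4 and 69.3 with THZ531, against 42.3 to 45.8 in DMSO. Every library of either compound lay above every DMSO library in both measures.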

How the results depend on the processing

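Under DESeq2, its size factors in edgeR, no filter, the 6 libraries alone, the replicate block and each left-out library, all 126 named genes kept direction and call, except DDB1, called without a filter. Counts of calls were 11548 to 12225 on the TMM scale (11687 with DESeq2, 12024 with its size factors). Without each library in turn they were 11623 to 11756 (5956 to 6016 higher, 5667 to 5796 lower). On the spike-in scale they were 9969 to 11428 (9572 to 11194 higher, 234 to 397 lower). The replicate block gave 12004 and 10601 calls on the 2 scales. Same-numbered libraries correlated at 0.04, -0.03 and 0.02 in their deviations, so no pairing by number was seen. With 3 libraries a group these values cannot tell whether same-numbered libraries were prepared together. With spike-in scaling the higher and lower counts were 10353 and 368. The length difference changed sign to 0.0795 (50 and 10 kb) and 0.0444 (at least 10 CPM), and was -0.07 to -0.05 with a library left out. The other left-out ranges were 0.13 to 0.17 for single-exon genes, -4.41 to -2.06 points for the mitochondrial share and -0.35 to -0.27 points for the spike-in share.

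Spike-in scaling reversed 19 named genes: RBX1 0.53, HNRNPC 0.36, FANCI 0.32, FANCD2 0.80, HIST1H2BG 0.0033, RPL14 0.26, RPS20 0.34, RPL30 0.33, RPLP2 0.33, COX7C 0.25, SDHC 0.26, UQCRB 0.32, MT-ND3 0.15, MT-CO1 0.21, MT-ND5 0.24, MT-CYB 0.11, FTL 0.49, CXCL10 0.22 and CDK6 0.14. Of these only RBX1, FANCD2 and FTL were called in the new direction, and the others lost their calls. Without a change of sign, spike-in scaling also ended the calls of CPSF2, TNFRSF10B, JUNB and BRCA1 and added DDB1 at 1.36. The 1.27 shift between scales is built into the scaling. DMSO replicate 3, the shallowest library, limits comparisons with DMSO, and low THZ531 levels rest on few reads.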
